A study of Mus musculus with 16 samples.

Results

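The comparison set 24 h against 6 h of culture with PL2-3 in splenic B cells of 3 genotypes that carry at least 1 of the nucleic acid receptors TLR7 and TLR9. It used 6 of the 16 arrays of the series, chosen by their labels, as 3 arrays at 24 h and 3 at 6 h paired by genotype. The genotypes were WT, TLR7 KO (Tlr7-/-, which keeps TLR9) and TLR9 KO (Tlr9-/-, which keeps TLR7). All carry the AM14 background, whose B cell receptor recognises IgG, and PL2-3 is a monoclonal IgG antibody against chromatin, so these cells bind and take up complexes of antibody and nucleic acid. The fourth genotype, TLR7 TLR9 KO (Tlr7/9-/-), and the arrays at 0 h (unstimulated) and 42 h (PL2-3) serve below only for reference. Each sample was labelled with Cy5 and hybridised against 1 common Cy3 reference, a pool of RNA from unstimulated B cells of all 4 genotypes, so every level below is the log2 of sample over that pool. The sources used here give neither age and sex of the mice nor B cell purity, PL2-3 dose or the number of mice behind an RNA sample.

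There was 1 array per genotype and time. The 3 genotypes therefore stand in for replicates. Each p-value sets the 24 h less 6 h difference against how far the genotypes disagreed, for that gene and over all genes, which is not the spread between mice. No cells were cultured without PL2-3, so the effects of PL2-3 and of culture alone cannot be told apart. WT and TLR7 KO lay on 1 slide and TLR9 KO and TLR7 TLR9 KO on the other, and the slides were scanned on separate occasions. Both times of a genotype shared a slide, so the slide does not separate 24 h from 6 h, but it cannot be told apart from the presence of TLR9.

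A B cell that meets antigen first switches on immediate early transcription factors, the NF-κB pathway, activation markers and MYC, and it builds ribosomes and imports amino acids as it grows. Only later does it enter the cell cycle, when E2F factors, released from the retinoblastoma proteins, turn on the genes of DNA replication, and a complex that binds the CHR element turns on those of mitosis. Signals from TLR7 and TLR9 add to those of the antigen receptor, drive division and induce interferon-stimulated genes in B cells that recognise nucleic acid complexes.

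Part of the genes in the groups that moved between the phases carry known control elements close to their transcription starts. Of the promoters that hold one, 8 are printed here because their genes stand for those groups. They are the 120 bases just upstream of a RefSeq transcript start (GRCm38.p6), 5′ to 3′ on the gene's strand, with matches to the named element in capitals. Mcm6 (chr1:128359706-128359825, minus strand) and Dtl (chr1:191575545-191575664, minus strand) hold an E2F element.
Mcm6: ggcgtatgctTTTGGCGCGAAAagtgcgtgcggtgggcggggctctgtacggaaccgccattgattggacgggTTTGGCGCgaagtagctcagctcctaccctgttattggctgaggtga
Dtl: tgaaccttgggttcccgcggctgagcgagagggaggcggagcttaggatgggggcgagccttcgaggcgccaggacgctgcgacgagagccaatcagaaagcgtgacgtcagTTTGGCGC
Mki67 (chr7:135716380-135716499, minus strand) and Cdk1 (chr10:69352913-69353032, minus strand) hold the CHR element of mitotic genes.
Mki67: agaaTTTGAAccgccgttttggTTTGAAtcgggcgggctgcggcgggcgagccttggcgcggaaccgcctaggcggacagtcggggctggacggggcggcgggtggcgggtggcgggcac
Cdk1: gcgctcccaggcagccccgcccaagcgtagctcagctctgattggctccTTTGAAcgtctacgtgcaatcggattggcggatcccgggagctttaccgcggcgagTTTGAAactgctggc
Nfkbia (chr12:55492648-55492767, minus strand) and Tnfaip3 (chr10:19015411-19015530, minus strand) hold a κB element.
Nfkbia: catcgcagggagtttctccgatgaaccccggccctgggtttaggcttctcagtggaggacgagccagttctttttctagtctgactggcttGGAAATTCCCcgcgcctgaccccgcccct
Tnfaip3: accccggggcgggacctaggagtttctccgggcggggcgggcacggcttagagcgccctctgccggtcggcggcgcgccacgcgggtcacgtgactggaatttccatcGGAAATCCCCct
Asns (chr6:7693210-7693329, minus strand) holds the element bound by ATF4 and its partners, and Oas1a (chr5:120907526-120907645, minus strand) overlapping copies of the interferon-stimulated response element.
Asns: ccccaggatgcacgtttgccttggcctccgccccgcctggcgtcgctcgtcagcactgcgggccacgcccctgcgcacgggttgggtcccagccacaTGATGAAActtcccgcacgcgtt
Oas1a: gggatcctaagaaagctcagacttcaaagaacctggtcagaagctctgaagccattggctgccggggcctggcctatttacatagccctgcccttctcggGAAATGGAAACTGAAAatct

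Promoters were searched on both strands in 300-base windows that run from upstream of the start to a short way past it, and a match is a description of the letters, not a binding site. The E2F words (TTTCCCGC, TTTGGCGC, TTTCGCGC or TTTGCCGC) were in 40% of 40 windows of DNA replication genes, against 2.26% of all 32851 windows in the table. The CHR word (TTTGAA) was in 75% of 36 windows of mitotic genes, against 17.9% of all windows. Windows of the NF-κB genes held GGG and TTTCC with any 2 bases between in 38.9% of cases (all windows 1.63%), those of the amino acid response held TGATGNAA in 28.6% (3.97%), and those of the interferon-stimulated genes held GAAA and GAAA with any 2 bases between in 45.5% (3.44%). The E-box CACGTG, the element of MYC and its partners, was in 35% of 20 windows of the MYC and ribosome list (all windows 7.15%). These lists were drawn up from known pathways, so the shares describe the lists rather than the change. Over all genes that moved at least 2-fold, the E2F words were in 6.79% of the windows of genes that rose and in 2.75% of those that fell, and the E-box in 7.68% and 16.3%.

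Between 47.0% and 55.0% of the probes stood well above background in Cy5 on the 6 arrays, and no spot was saturated. The defining B cell markers, among them Cd79a, Cd79b, Ms4a1, Cd22 and Pax5, stood clear of background on each of the 6 arrays. Their summed Cy5 signal was 49021 to 67580 at 6 h and 68721 to 83090 at 24 h. The Tlr7 probe read 1.48 and 0.90 at 6 and 24 h in WT, -0.02 and -0.20 in TLR7 KO, and 1.07 and 1.64 in TLR9 KO, so TLR7 KO was the lowest at both times. The Tlr9 probe read -0.05 and -0.84, -0.30 and -0.75, and -0.31 and -1.14 in the same order, and did not register the TLR9 knockout. Whether it lies in the deleted part of the gene is unknown, so it checks nothing.

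Of 13721 named genes tested, 2945 were higher at 24 h (21.5%) and 3401 lower (24.8%), 46.3% in all, at an adjusted p under 0.05 in limma, which is what "rose" and "fell" mean below. The switch on was the steeper: 1013 genes rose at least 2-fold (7.38%) and 470 fell at least 2-fold (3.43%). The values of the 3 arrays at 24 h lay above all 3 at 6 h for 3657 genes (26.7%) and below them for 4271 (31.1%). Without the WT arrays 1812 genes were higher and 1926 lower, and without those of TLR7 KO 1854 and 1915. Within the slide of WT and TLR7 KO the counts were 3759 and 3906. Arrays centred on their median, in place of loess, gave 2543 higher and 2054 lower. In single genotypes 1095 genes were at least 2-fold higher in WT, 1039 in TLR7 KO and 1071 in TLR9 KO, and 490, 473 and 735 were at least 2-fold lower.

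**Figure D1:**
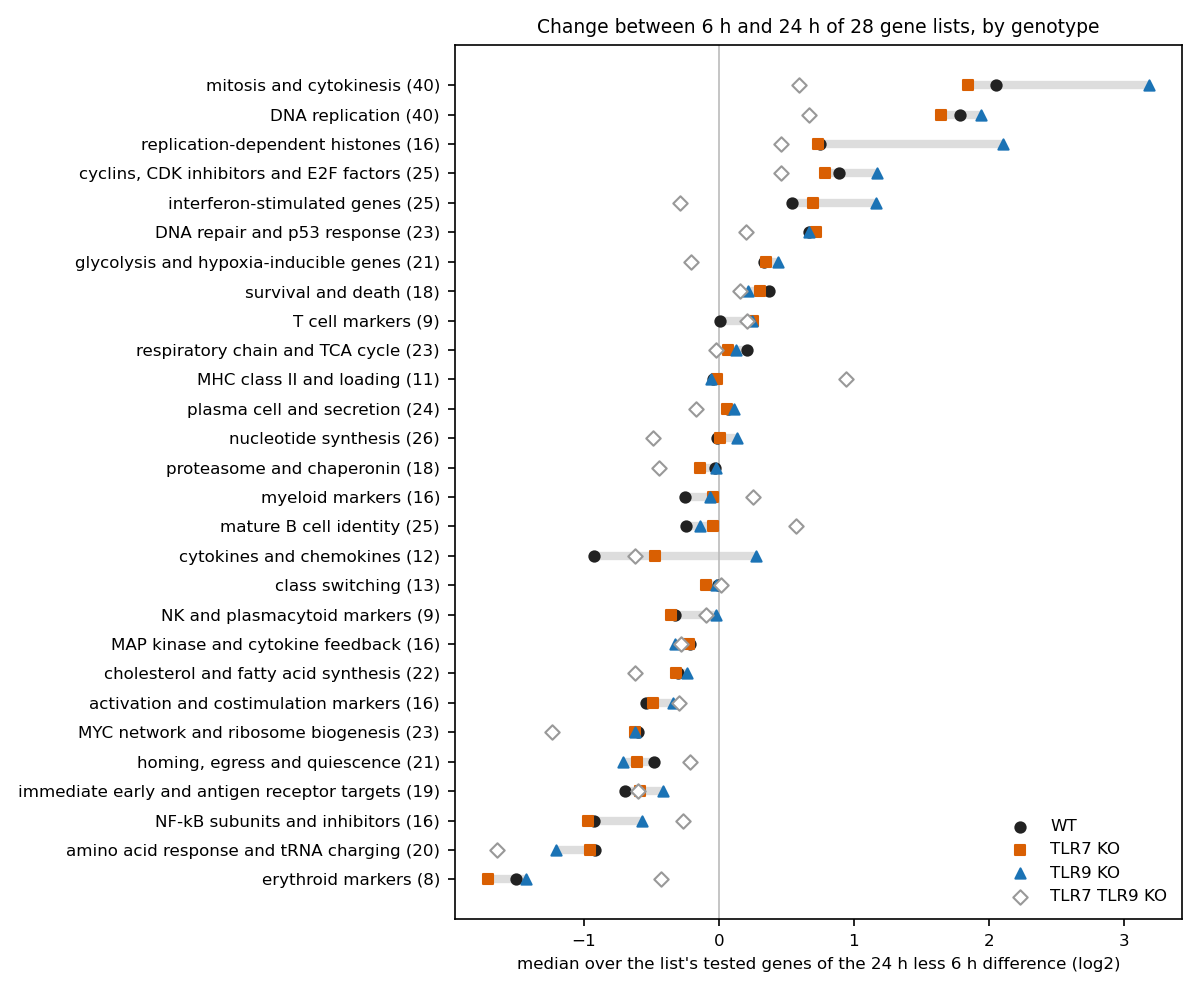
Median difference of 24 h less 6 h (log2) over the tested genes of 28 lists (number tested in brackets), by genotype, with 1 pair of arrays per point and a grey bar over the range of WT, TLR7 KO and TLR9 KO. Mitosis lies highest in each of these 3 genotypes, at medians of 1.84 to 3.19, and erythroid markers lowest, at -1.43 to -1.71.

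To describe what these genes do, 28 lists of 577 distinct genes were used, of which 553 were tested, 17 were on the array but too dim to test and 7 were not on it. Of the 553 genes 200 rose, 159 fell and 194 did not pass. The counts by list below stand beside the shares over all genes tested, of which 21.5% rose and 24.8% fell. Levels are given in the order WT, TLR7 KO, TLR9 KO, and a difference is the 24 h less 6 h change in log2 with the standard error of the limma fit. The plot of list medians places DNA replication, mitosis and histones above 0, and immediate early genes, NF-κB, activation markers and the MYC network below 0, in each of the 3 genotypes.

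The DNA replication machinery was switched on. Of 40 tested genes 35 rose, with a list median of 1.80 against -0.03 over all genes tested, and the others did not pass (Gins4 0.35, Cdt1 0.17, Gins3 0.08, Prim2 0.07 and Pold2 -0.09). Mcm10, which helps to load and activate the replicative helicase, read 0.09, 0.17 and 0.10 at 6 h and 3.79, 3.68 and 3.97 at 24 h. All 3 arrays at 24 h stood far above those at 6 h, a rise of 3.69 ± 0.11 or 12.9-fold (limma adjusted p = 0.000227). Geminin (Gmnn), the inhibitor of relicensing, went from -0.35, -0.27 and -0.01 to 3.33, 2.99 and 3.36, a rise of 3.44 ± 0.11. Uhrf1, which copies DNA methylation onto new strands, rose by 3.35 ± 0.10 from a mean already above the pool at 6 h, and the chromatin assembly subunit Chaf1a rose by 3.27 ± 0.09 from the level of the pool. Licensing factor Cdc6 stood above background on no array at 6 h and on all 3 at 24 h, where the ratio level was 7.09-fold higher. For such genes the dim side is at background and has only a bound. The Cy5 signal alone, with that side set to the background level, gave at least 7.55-fold for Cdc6. Bounds of this kind are open to dye bias and ran above the folds of the ratio levels for the genes given here, so the ratio folds are printed below.

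The subunits of the replicative helicase did not start from the same level. Mcm6, whose promoter is shown above, read 1.53, 1.78 and 1.45 at 6 h and 3.65, 3.39 and 3.52 at 24 h, a difference of 1.93 ± 0.13 (limma adjusted p = 0.000536). Mcm3 was also above the pool at 6 h (0.90, 0.88 and 0.64) and rose by 1.91 ± 0.11, while Mcm4 began below it (-0.21, -0.06 and -0.17) and rose by 2.31 ± 0.10. The sliding clamp Pcna was at 1.29, 1.32 and 1.43 by 6 h and gained 0.58 ± 0.10, a call lost without WT (adjusted p = 0.0566) and in the fit of 12 arrays (0.0634). Dtl, the substrate receptor of the ubiquitin ligase that clears Cdt1 in S phase, went from 0.45, 0.68 and 0.58 to 4.10, 4.0 and 4.66, a rise of 3.69 ± 0.16, or 12.9-fold. Cdt1 itself read -0.42, -0.43 and -0.27 at 6 h and -0.18, -0.55 and 0.10 at 24 h.

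Genes that supply deoxynucleotides rose. Rrm2, the regulated subunit of ribonucleotide reductase, had the largest rise of all genes named by rule: -1.24, -0.98 and -1.05 at 6 h and 3.91, 3.67 and 4.57 at 24 h. This was a difference of 5.14 ± 0.19, or 35.3-fold (limma adjusted p = 0.000227). Thymidine kinase 1 (Tk1) rose by 2.93 ± 0.09 from below the pool, and Rrm1, Dut and Tyms, which make or guard deoxynucleotides, rose by 1.90, 1.67 and 1.17. The 8 genes of the list that fell make purines, pyrimidines or polyamines. Paics, of purine synthesis, rose by 0.34 ± 0.09, a call lost without WT (adjusted p = 0.127) and without TLR7 KO (0.123). Odc1, the first enzyme of polyamine synthesis, fell from 4.21, 4.31 and 3.64 to 3.01, 2.97 and 3.17, a difference of -1.01 ± 0.18, and Impdh1, of guanine nucleotide synthesis, fell by 0.99 ± 0.09. Of 26 tested genes of the list 8 rose and 8 fell (over all genes tested 21.5% rose and 24.8% fell). The list median was 0.01, which turned to -0.03 without TLR9 KO.

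Mitosis was switched on almost as a block. Of 40 tested genes 39 rose, with a list median of 2.39, and Cenpf did not pass (0.30 ± 0.10). Another member, Aurkb, was too dim to test. Mki67, the proliferation marker that coats mitotic chromosomes, read -1.80, -1.69 and -1.70 at 6 h and 2.11, 2.06 and 4.0 at 24 h. The 6 h levels lay below the unstimulated pool and close to each other, and TLR9 KO stood apart at 24 h. The rise was 4.45 ± 0.38, or 21.8-fold (limma adjusted p = 0.000906). Cyclin A2 (Ccna2) rose by 4.26 ± 0.31, the survivin gene Birc5 by 3.56 ± 0.28, topoisomerase Top2a by 3.54 ± 0.24, and Sgo1, the guardian of sister chromatid cohesion, by 3.51 ± 0.23.

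Other mitotic genes came up in the same way. Spc24, of the outer kinetochore, and the checkpoint kinase gene Bub1 stood above background on no array at 6 h and on all 3 at 24 h. Spc24 was 10.5-fold higher by its ratio levels, and Bub1 read 2.62, 2.69 and 3.82 at 24 h. Cdk1, the kinase that starts mitosis, was 5.04-fold higher, also from no array above background at 6 h, with ratios of 2.14, 2.07 and 3.17 at 24 h. Cyclin B1 (Ccnb1) read -0.06, 0.13 and -0.07 at 6 h and 2.55, 2.56 and 4.16 at 24 h. The kinase Plk1 read 1.96, 1.69 and 3.58 at 24 h after -0.13, 0.01 and close to 0 at 6 h, and Cdc20, an activator of the anaphase ligase, 1.58, 1.68 and 3.26 after 0.80, 0.74 and 0.52. The Cdc20 call was lost without TLR7 KO (adjusted p = 0.0520), with the processed signals (0.0859) and in the fit of 12 arrays (0.105). For each of these genes WT and TLR7 KO were close to each other at 24 h and TLR9 KO was higher.

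Replication-dependent histone genes, which are transcribed in S phase, had fallen below the pool by 6 h and came back by 24 h. Of 16 tested genes 10 rose, with a list median of 1.20, and the other 6 did not pass. H2ac4 read -1.75, -1.60 and -1.65 at 6 h and 1.70, 1.40 and 2.85 at 24 h (difference 3.65 ± 0.28). H2ac11 went from -3.41, -3.26 and -2.77 to -0.02, -0.13 and 2.28, and H2ac22 followed it closely, with differences of 3.86 ± 0.36 and 3.84 ± 0.39. The linker histone gene H1f5 rose by 3.37 ± 0.40. Histone genes of 1 family are near copies, and a probe may read several of them.

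**Figure D2:**
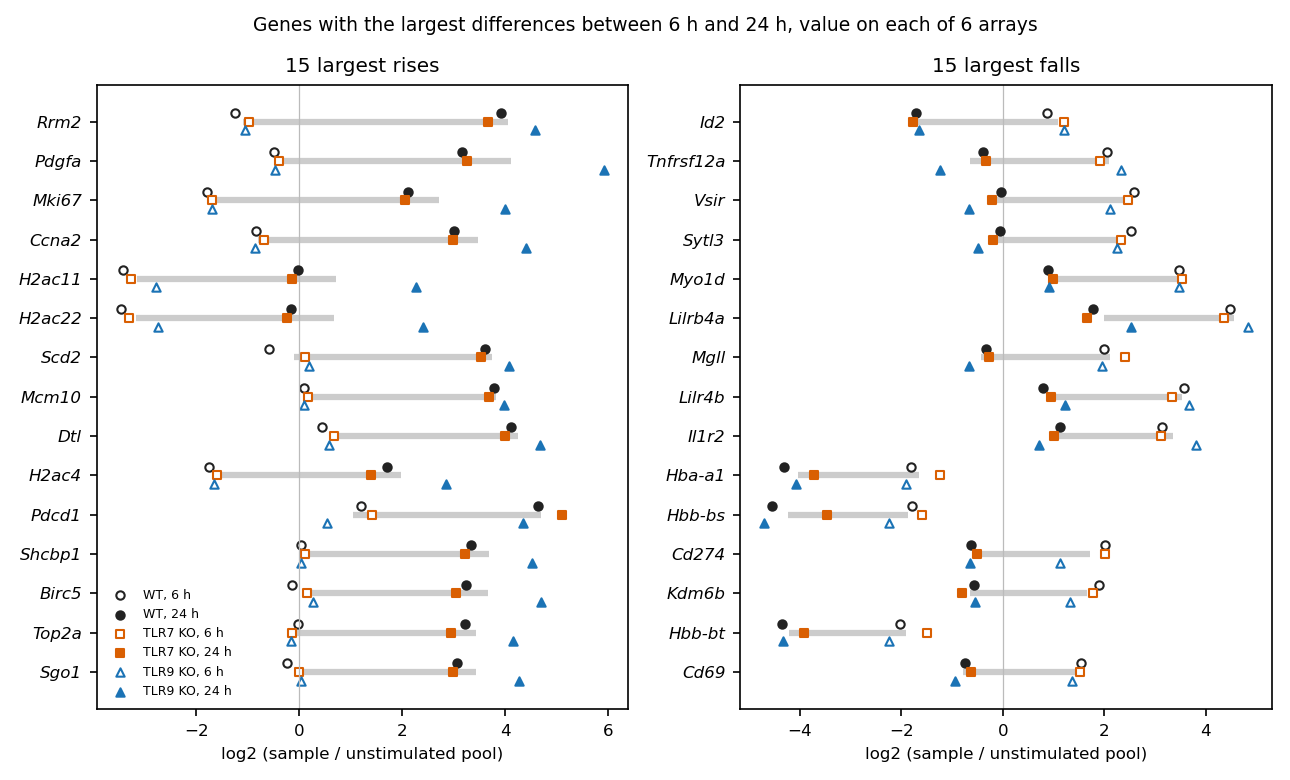
Level (log2 of sample over unstimulated pool) on each of 6 arrays for the 15 largest rises and the 15 largest falls, open symbols for 6 h and filled for 24 h, with a grey bar between the means of each time. For most rising genes WT and TLR7 KO overlie each other at 24 h and TLR9 KO lies further right, as for Pdgfa (5.92 against 3.16 and 3.25).

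The regulators of the cycle changed hands between the D-type cyclins. Cyclin D2 (Ccnd2), the early cyclin of B cells, fell from 2.05, 1.78 and 1.77 to 1.26, 1.34 and 1.12 (-0.63 ± 0.10), while cyclin D3 (Ccnd3) rose from -1.34, -1.19 and -1.87 to 0.18, 0.01 and 0.30 (1.63 ± 0.19). Cyclin E1 (Ccne1), the partner of CDK2 at S phase entry, rose by 3.42 ± 0.13. Among the E2F factors the activators E2f1, E2f2 and E2f3 rose by 2.08, 1.40 and 1.44 and the late repressor E2f8 rose 7.91-fold from below background, while E2f5 fell by 1.13. The E2f2 call was lost in the fit of 12 arrays (adjusted p = 0.0608). Pocket proteins that restrain E2F also rose, Rbl1 by 2.13 ± 0.11, Rb1 by 1.06 and Rbl2 by 0.81. So did inhibitors of cyclin-dependent kinases, Cdkn2d by 1.39, Cdkn2c by 1.36 (measured above background on 2 arrays of 3 at 6 h) and Cdkn1b by 0.75 ± 0.09. Cdkn2d and Cdkn1b, which mark resting lymphocytes, stayed below the pool at 24 h, Cdkn1b at -1.58, -1.45 and -1.25. Of the 25 tested genes of this list 15 rose and 5 fell, with a median of 0.93.

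Several genes of homologous recombination rose. Of 23 tested genes of DNA repair and the p53 response 13 rose and 4 fell, with a median of 0.61. The nuclease Exo1 and the motor Rad54l rose by 3.06 and 2.57. Among those that fell were Bbc3, a p53 target that encodes the death protein PUMA, from 1.69, 2.17 and 2.78 to 0.07, 0.21 and 0.65 (-1.91 ± 0.12) and the stress gene Gadd45b from 3.15, 3.22 and 1.97 to 1.02, 1.14 and 0.84 (-1.78 ± 0.21). Gadd45a, a p53 target of the same family, rose by 0.35 ± 0.09, a call lost without WT (adjusted p = 0.107), without TLR7 KO (0.121) and with median centring (0.169). Trp53 fell by 0.40, a call lost without WT (adjusted p = 0.22), without TLR7 KO (0.0585) and with no replicate block (0.0673). Its feedback inhibitor Mdm2 read -0.08 and did not pass.

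Several genes outside the lists of replication and mitosis were among the steepest rises. Pdgfa, a growth factor, rose by 4.56 ± 0.54, from -0.49, -0.38 and -0.47 to 3.16, 3.25 and 5.92. Pdcd1, the inhibitory receptor PD-1, rose from 1.20, 1.42 and 0.53 to 4.64, 5.11 and 4.34 (3.64 ± 0.11, 12.5-fold). Scd2, a desaturase of fatty acids, rose from -0.58, 0.11 and 0.18 to 3.61, 3.53 and 4.08 (3.83 ± 0.16). Pcbd1, which recycles the cofactor tetrahydrobiopterin and helps dimers of HNF1 to form, was not well above background at 6 h and was 8.24-fold higher at 24 h. Aunip, a partner of the mitotic kinase Aurora A, was 9.47-fold higher, likewise from below background. Shcbp1, an adaptor found in dividing cells, rose by 3.63 ± 0.27.

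Glycolysis was raised in part. Of 21 tested genes 11 rose and 1 fell, with a median of 0.37. Aldoc, an aldolase isoform, read -2.35, -2.36 and -1.96 at 6 h and 0.66, 0.93 and 1.09 at 24 h, a rise of 3.11 ± 0.10 or 8.66-fold. Gapdh, Pdk1 and Tpi1 rose by 1.37, 1.36 and 1.28, and the calls of Pdk1 and Tpi1 were lost in the fit of 12 arrays (adjusted p = 0.0778 and 0.111). Other members had already risen by 6 h and stayed there: Hk2, the hexokinase of growing cells, read 3.37, 3.53 and 3.02 at 6 h and 3.21, 3.44 and 3.25 at 24 h, and Ldha 2.48, 2.59 and 2.58 and then 2.54, 2.35 and 2.61. Vegfa, a target of hypoxia-inducible factors, fell by 1.01 ± 0.09, but by 0.067 with the processed signals (adjusted p = 0.772). Of 23 tested genes of the respiratory chain and the TCA cycle 5 rose, with a median of 0.12, and the others did not pass. The share that rose was close to the 21.5% over all genes tested. Fumarase (Fh1) rose by 1.09 ± 0.09 and Cox6c by 0.98 ± 0.22, a call lost with the processed signals (adjusted p = 0.0579). The list medians were 0.78 for glycolysis and 0.45 for respiration with arrays centred on their median.

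Interferon-stimulated genes had sunk below the unstimulated pool at 6 h and recovered by 24 h. Of 25 tested genes 14 rose and 1 fell, with a list median of 0.88. The median level was -0.01 at 0 h, -1.01 at 6 h and 0.05 at 24 h over the 3 genotypes. Oas1a, which senses double-stranded RNA and whose promoter is shown above, read -1.97, -2.10 and -2.73 at 6 h and -0.21, -0.07 and 0.11 at 24 h (2.21 ± 0.21, limma adjusted p = 0.00114). Usp18, which removes ISG15 and dampens interferon receptor signals, rose by 2.17 ± 0.26 and Xaf1, a promoter of apoptosis, by 1.92 ± 0.20. Ifih1, the RNA sensor MDA5, was the exception at 6 h: it read 1.92 and 2.12 in WT and TLR7 KO but -0.32 in TLR9 KO, and 3.55, 3.46 and 3.85 at 24 h. Its rise of 2.38 ± 0.53 was past the threshold with loess and not with the scanner's processed signals (adjusted p = 0.106). Rsad2, an antiviral enzyme, fell by 1.19 ± 0.21, with 2 arrays of 3 above background at 24 h.

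**Figure D3:**
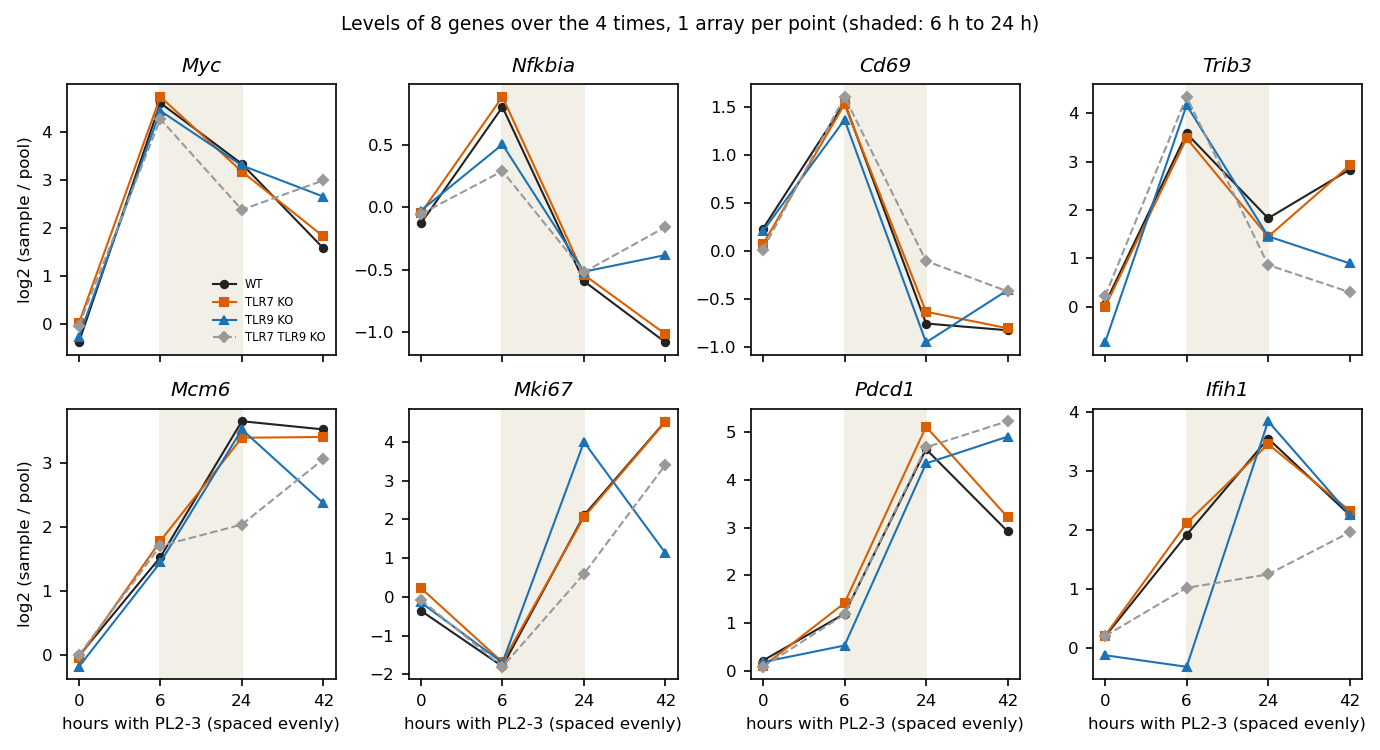
Level (log2 of sample over pool) of 8 genes at 0, 6, 24 and 42 h, 1 array per point, with the span from 6 to 24 h shaded and times spaced evenly. Myc, Nfkbia, Cd69 and Trib3 peak at 6 h in all 4 genotypes, while Mcm6, Mki67 and Pdcd1 rise after it.

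The first wave of transcription factors was on its way down. Of 19 tested immediate early genes and targets of the antigen receptor 12 fell and 2 rose, with a list median of -0.63. Fosl1, a FOS family factor, read 3.04, 2.86 and 2.36 at 6 h and 0.66, 0.63 and 0.24 at 24 h, a fall of 2.24 on the log2 scale (SE 0.10) or 4.74-fold (limma adjusted p = 0.000251). Nr4a1, the orphan receptor induced by antigen, fell from 2.37, 2.39 and 3.63 to 1.57, 1.43 and 0.55 (-1.61 ± 0.44), with an adjusted p of 0.0581 without the TLR7 KO arrays and 0.108 with the processed signals. Fosl2 went from 1.25, 1.20 and 3.00 to 0.20, 0.27 and 0.42, and Klf10 fell by 1.11. Egr2, a brake on lymphocyte activation, stayed high, at 5.17, 5.03 and 5.29 and then 4.44, 4.60 and 4.35 (-0.70 ± 0.12), and its call was lost in the fit of 12 arrays (adjusted p = 0.521). Egr1 read 0.34, 0.59 and 1.69 at 6 h and 1.27, 0.97 and 1.31 at 24 h and did not pass over the 3 genotypes (0.31 ± 0.24), and without TLR9 KO the difference was 0.66 and passed. Fos read -4.35, -4.62 and -4.72 at 6 h, far below the pool, and fell by a further 0.32 ± 0.09, a call lost without WT (adjusted p = 0.197), without TLR7 KO (0.125) and with no replicate block (0.0772).

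NF-κB factors and their inhibitors, which the pathway induces to end its own signal, fell together. Of 16 tested genes 11 fell, with a list median of -0.92, and the other 5 did not pass. Nfkbia, the inhibitor IκBα, read 0.81, 0.89 and 0.51 at 6 h and -0.59, -0.54 and -0.51 at 24 h, from above the pool to below it in every genotype (-1.28 ± 0.12). Tnfaip3, the deubiquitinase A20, fell from 2.68, 2.80 and 1.94 to 1.04, 1.08 and -0.04 (-1.78 ± 0.10). Nfkbid, a nuclear inhibitor, fell by 1.94 ± 0.12 and Nfkb1, the p105 precursor, by 1.48 ± 0.10. Rela and Relb fell by 0.97 and 0.98. Rel was dim, above background on 1 array of 3 at 6 h and 2 at 24 h.

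Genes of feedback on kinase and cytokine signals fell more often than they rose. Of 16 tested genes 6 fell and 3 rose, with a median of -0.31. The share that rose did not exceed the 21.5% over all genes tested, of which 24.8% fell. The kinase gene Pim1 fell from 1.50, 1.28 and 1.38 to -0.97, -0.85 and -0.45 (-2.14 ± 0.14), while its relative Pim2 rose from 0.19, 0.09 and 0.30 to 1.48, 1.55 and 1.63 (1.36 ± 0.09). Spry1, an inhibitor of receptor kinase signals, fell by 1.58 ± 0.22, and Dusp2, a phosphatase of MAP kinases, by 1.24 ± 0.27, a call lost with median centring (adjusted p = 0.0556), the processed signals (0.0622) and the fit of 12 arrays (0.0540). Dusp6, which acts on ERK, rose from -4.25 and -3.93 to -2.41 and -2.40 in WT and TLR7 KO and read -2.76 and -2.79 in TLR9 KO. Its call (adjusted p = 0.0496) was lost without WT (0.202) and without TLR7 KO (0.203).

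Surface markers of activation receded, with PD-1 as the exception given above. Of 16 tested markers 9 fell and Pdcd1 alone of them rose, with a list median of -0.45. Cd69, the early activation antigen, read 1.54, 1.53 and 1.37 at 6 h and -0.75, -0.63 and -0.95 at 24 h (-2.25 ± 0.09, 4.77-fold). Il2ra, the alpha chain of the IL-2 receptor, fell from 4.87, 4.99 and 4.66 to 2.83, 2.56 and 2.37 and so stayed above the pool. Cd274, the ligand PD-L1, fell by 2.32 ± 0.18, the costimulatory gene Cd86 by 1.87 ± 0.12 and the TNF receptor gene Tnfrsf1b by 1.83 ± 0.09. Vsir, the checkpoint molecule VISTA, is outside the list and fell by 2.69 ± 0.09. Cd44, Cd80, Icam1, Slamf1, Fas and Icosl did not pass.

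Other steep falls were of receptors and regulators. Id2, which blocks E proteins, fell from 0.88, 1.21 and 1.21 to -1.70, -1.77 and -1.65, a difference of -2.81 ± 0.11 and the largest fall named by rule (6.99-fold, limma adjusted p = 0.000246). Tnfrsf12a, the receptor of TWEAK, fell by 2.75 ± 0.25. Lilrb4a and Lilr4b, inhibitory receptors encoded by near copies that a probe may not separate, fell by 2.56 and 2.53, from 4.47, 4.35 and 4.83 to 1.78, 1.66 and 2.53 for Lilrb4a. The decoy receptor of interleukin-1, Il1r2, fell by 2.41, the lipase Mgll by 2.55, Sytl3, of vesicle transport, by 2.62, the motor Myo1d by 2.57, and the histone demethylase Kdm6b by 2.31. Genes that stood above background throughout at 6 h and nowhere at 24 h fell by less than the rises did: Rbpms 2.30-fold, Ndrg4 2.10-fold, Gad1 2.39-fold and Nat8l 1.90-fold by their ratio levels.

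Cytokine genes had no common course. Of 12 tested genes 3 fell and 1 rose. The share that fell was close to the 24.8% over all genes tested, and the share that rose was below the 21.5%. The list median of -0.15 was 0.11 without WT and 0.08 without TLR7 KO. Il2 fell from 3.82, 3.34 and 1.30 to 0.30, 0.01 and 0.14, with 1 array of 3 above background there (-2.67 ± 0.45). Il6 rose from 1.16, 1.67 and 0.29 to 2.53, 2.68 and 2.40, with 2 arrays of 3 above background at 6 h (1.49 ± 0.21); the call was lost with the scanner's processed signals (adjusted p = 0.0882). Ccl4, a chemokine, read 8.32, 8.56 and 6.69 at 6 h and 7.23, 7.36 and 6.81 at 24 h, so that it fell in WT and TLR7 KO and did not in TLR9 KO. Its mean difference of -0.73 ± 0.26 missed the threshold (limma adjusted p = 0.0752), and it was -1.15 and passed without TLR9 KO. Tnf showed the same split at 6 h, with 2.58, 2.35 and 0.65, and 1.89, 1.82 and 2.08 at 24 h.

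MYC and the genes of ribosome building had peaked before 24 h. Of 23 tested genes 19 fell and 3 rose, with a list median of -0.59, and the median level went from 2.28 at 6 h to 1.63 at 24 h, still above the pool. Myc read 4.61, 4.74 and 4.45 at 6 h and 3.34, 3.18 and 3.31 at 24 h (-1.32 ± 0.11, 2.50-fold). Mnt, which competes with MYC for its partner MAX, fell by 1.87 ± 0.12. Those that rose were Max (0.55) and the MYC antagonists Mxd4 and Mxd1: Mxd4 went from -2.10, -2.37 and -2.22 to 0.20, 0.47 and -0.03 (2.44 ± 0.15), and Mxd1 rose by 0.57. Rrp9 and Pes1, of ribosomal RNA processing, fell by 0.99 and 0.92, and nucleolin (Ncl) by 0.90. Without WT the calls of Max, Mxd1 and Ncl were lost (adjusted p = 0.123, 0.0550 and 0.0712), with median centring that of Ncl (0.149), without TLR7 KO that of Mxd1 (0.0624) and in the fit of 12 arrays that of Pes1 (0.0613). Npm1 read 2.53, 2.46 and 2.21 and then 2.41, 2.33 and 1.98, and did not pass.

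The amino acid response, in which ATF4 induces synthetases, transporters and its own inhibitors, had the lowest median among the lists of B cell functions. Of 20 tested genes 18 fell and 1 rose, with a list median of -1.05. Trib3, an inhibitor of ATF4, fell from 3.58, 3.48 and 4.17 to 1.83, 1.45 and 1.46 (-2.17 ± 0.19, limma adjusted p = 0.000927). Slc3a2, the heavy chain shared by amino acid transporters, fell by 1.46 ± 0.12, Chac1, which degrades glutathione, by 1.43 ± 0.20, and Atf4 itself by 1.1 ± 0.11. Asns, which makes asparagine, was among the highest of the list at both times, at 4.69, 4.89 and 4.60 and then 4.34, 4.37 and 3.90 (-0.52 ± 0.11), and its call was lost without TLR7 KO (adjusted p = 0.0700) and with median centring (0.0635). The Chac1 call was lost with the processed signals (0.0511). The member that rose was Ddit4, an inhibitor of mTORC1, from -3.31, -3.23 and -2.48 to -1.14, -1.07 and -0.59 (2.07 ± 0.10).

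Lipid synthesis and protein turnover changed less. Of 22 tested genes of cholesterol and fatty acid synthesis 11 fell and 4 rose, with a median of -0.33. Apart from Scd2, given above, Elovl6, which lengthens fatty acids, rose by 1.1 ± 0.23, a call lost without WT (adjusted p = 0.0692), without TLR7 KO (0.0765) and with the processed signals (0.0620). Fatty acid synthase (Fasn) fell by 1.36 ± 0.09. Of 18 tested genes of the proteasome and the chaperonin 4 fell and 2 rose, and the median of -0.03 was 0.15 with median centring. Neither count exceeded the share over all genes tested (24.8% fell and 21.5% rose). Psmc4, Psmb6 and Cct3 fell by 0.51, 0.45 and 0.38, and their calls were lost with median centring (adjusted p = 0.257, 0.671 and 0.489) and without WT (0.0621, 0.0713 and 0.0917), and those of Psmb6 and Cct3 without TLR7 KO (0.0953 and 0.110).

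Genes of B cell identity were far below the pool at both times. The median level of 25 tested genes was -1.78 at 6 h and -1.82 at 24 h, and 4 rose and 6 fell. Neither count exceeded the share over all genes tested (21.5% rose and 24.8% fell). Bcl6, the factor of germinal centre B cells, fell further, from -1.93, -1.55 and -1.86 to -3.13, -3.07 and -3.95 (-1.60 ± 0.17), and Cd72, an inhibitory coreceptor, fell by 1.38 ± 0.12. Fcrla, an intracellular binder of immunoglobulin, rose by 1.63 ± 0.19 but was still at -2.51, -2.25 and -2.17. The adaptor Blnk rose by 1.07 and the receptor chains Cd79a and Cd79b by 0.47 and 0.40. The calls of Cd79a and Cd79b were lost without WT (adjusted p = 0.120 and 0.225), without TLR7 KO (0.170 and 0.188) and with no replicate block (0.102 and 0.298), and that of Blnk with the processed signals (0.0548). Pax5, Cd22 and Ms4a1 did not pass.

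Antigen presentation genes moved in both directions. The invariant chain gene Cd74 fell by 1.04 ± 0.11, and the classical class II genes H2-Eb1, H2-Ab1 and H2-Aa by 0.97, 0.85 and 0.59, while H2-Ea did not pass (-0.11). Of the genes whose products control peptide loading, H2-Oa, H2-DMb1, H2-DMa and H2-DMb2 rose by 1.48, 0.89, 0.84 and 0.79, and H2-Ob did not pass (0.28). Cd74 went from -1.0, -1.39 and -0.32 to -2.18, -2.18 and -1.47 and H2-Oa from -3.68, -3.94 and -3.15 to -2.29, -2.22 and -1.82. With median centring none of the 4 falls passed (adjusted p = 0.115 for Cd74, 0.226 for H2-Eb1, 0.370 for H2-Ab1 and 0.180 for H2-Aa). Without WT the calls of H2-Aa and H2-DMa were lost (0.120 and 0.0504), and that of H2-DMb1 with the processed signals (0.0502). Of 11 tested genes 4 rose and 4 fell (over all genes tested 21.5% rose and 24.8% fell). The median of 0.10 was -0.09 without TLR9 KO.

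Homing receptors and quiescence factors fell on balance, with 12 of 21 tested genes lower, 6 higher and a list median of -0.60. Ccr7, which guides cells to the T cell zone, fell from 3.04, 3.28 and 1.66 to 0.40, 0.46 and 0.56 (-2.19 ± 0.33), and Cxcr4 from 0.10, 0.19 and 0.67 to -1.40, -1.46 and -2.14 (-1.99 ± 0.26). The quiescence factors Foxp1, Tsc22d3 and Klf2 fell by 1.48, 1.44 and 0.76, Klf2 to -4.66, -4.40 and -5.34. The Klf2 call was lost without TLR7 KO (adjusted p = 0.0569), with median centring (0.0968), with the processed signals (0.0818) and in the fit of 12 arrays (0.0680), and that of Tsc22d3 with the processed signals (0.0505). Among those that rose, Rasgrp2, an activator of integrins, gained 1.35 ± 0.11.

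Plasma cell genes moved in both directions, and their master factor was among those that fell. Prdm1, which drives plasma cell differentiation, stood above background throughout at 6 h and nowhere at 24 h, and fell by 0.44 on the ratio scale, a call lost without WT (adjusted p = 0.171) and with the processed signals (0.0962). Irf4, its activator, fell from 2.61, 2.40 and 3.24 to 1.05, 0.94 and 1.30 (-1.66 ± 0.12). Xbp1 read 0.50, 0.39 and 0.53 and then 0.37, 0.32 and 0.35 and did not pass. Dnajb9, a chaperone of the endoplasmic reticulum, fell by 2.05 ± 0.14, and Hspa5 by 0.71. Among other genes of folding and secretion, Sdf2l1, Sec61b, Dnajc3, Herpud1 and Hsp90b1 rose by 0.86, 0.49, 0.49, 0.46 and 0.40. Pdia4, Pdia6, Calr, Creld2, Edem1, Sec61a1 and Ssr2 did not pass. Mzb1, which aids antibody secretion and is high in innate-like B cells, rose by 2.72 ± 0.12 and only back towards the pool (-0.84, -0.71 and -0.63). Of 24 tested genes 7 rose and 6 fell, with a median of 0.06, not far from the shares over all genes tested (21.5% rose and 24.8% fell). Of 13 tested genes of class switching 2 rose and 3 fell, with a median of -0.18, and neither count exceeded those shares. Prkdc, a kinase of end joining, rose by 1.34, and Ung, the uracil glycosylase, fell by 0.86.

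Genes of survival and death moved in both directions. Bad, a BH3-only protein, rose by 1.12 and the initiator caspase Casp8 by 1.09, and Bcl2l11, the death protein BIM, from 1.04, 1.23 and 1.33 to 2.31, 2.06 and 2.19 (0.99 ± 0.12). Bax, a death effector, fell by 0.63 ± 0.13, a call lost without WT (adjusted p = 0.0536) and with median centring (0.0890). Of the protectors, Bcl2l2 (BCL-W) rose by 1.04 ± 0.09, while Bcl2l1 (BCL-XL) and Cflar fell by 0.97 ± 0.13 and 1.04 ± 0.12, Bcl2l1 from 3.13, 3.23 and 2.54 to 2.08, 1.99 and 1.91. Bcl2 and Mcl1 did not pass (0.22 and -0.38). Of 18 tested genes 7 rose and 4 fell, with a median of 0.35. The share that fell did not exceed the 24.8% over all genes tested, of which 21.5% rose.

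Markers of other cell types moved too, and in bulk RNA fewer cells of a type and less RNA per cell cannot be told apart. Of 8 tested erythroid markers 5 fell, with a list median of -1.47. Hba-a1, an alpha globin, went from -1.81, -1.24 and -1.90 to -4.31, -3.72 and -4.07 (-2.38 ± 0.11). The beta globins Hbb-bs and Hbb-bt, near copies, fell by 2.36 and 2.29. The summed Cy5 signal of the 4 defining erythroid markers was 42780 to 64169 at 6 h and 10597 to 19629 at 24 h. For the 4 defining NK and plasmacytoid markers the sum was 22363 to 42006 and then 17313 to 19827, and Gzma, Siglech and Klrd1 fell. Klrd1 was above background on 2 arrays of 3 at 6 h and on none at 24 h. On the wider NK and plasmacytoid list of 9 tested genes these 3 alone fell, none rose and the other 6 did not pass. Defining T cell markers summed to 1455 to 1590 and then 1586 to 2110, where Cd8a was above background on no array and Lat rose, and defining myeloid markers to 1962 to 2184 and then 1646 to 2108, where none of the 6 passed. On the wider lists 2 of 9 T cell genes rose and Cd5, which B cells can also express, fell, and 2 of 16 myeloid genes rose and 3 fell. As shares these counts were close to or below those over all genes tested (21.5% rose and 24.8% fell). Without WT the calls of Klrd1, Lat and Cd5 were lost (adjusted p = 0.0768, 0.0993 and 0.0606), as was that of Lat without TLR7 KO (0.0703). The part of these cells in the results above was not tested.

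What was switched between 6 and 24 h was set beside the net change from 0 to 42 h in the same genotypes, a comparison that shares no array with it. Of 13695 genes tested at 42 h against 0 h, 2016 were higher (14.7%) and 2535 lower (18.5%). Of 2899 genes that rose from 6 to 24 h and were tested in both, 814 were above their 0 h level at 42 h and 456 below it. Those 814 are 28.1% of the genes that rose and 40.4% of those higher at 42 h. Of 3332 genes that fell, 970 (29.1%) were lower at 42 h than at 0 h and 398 (11.9%) higher. Rrm2 and Mcm10 were 3.98 and 3.56 above 0 h at 42 h, and Myc, after its fall, was still 2.23 above it. The histone H3c1 had recovered by 2.16 at 24 h and at 42 h was 0.72 below its 0 h level. Id2 and Cd69, high at 6 h, were at -0.95 (adjusted p = 0.113) and -0.85 against 0 h by 42 h.

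Cells without either receptor were compared next, as the difference between the 24 h less 6 h change in TLR7 TLR9 KO and the mean change in the other 3 genotypes. These cells also moved, with 959 genes at least 2-fold higher and 712 at least 2-fold lower at 24 h than at 6 h, from 1 pair of arrays. No difference of change passed in limma over 14368 genes, where 2535 (17.6%) had an unadjusted p under 0.05. The count of calls was 25 with median centring, 1 with no filter on dim probes and 2125 without the TLR9 KO arrays. Values by list are given as a description. The mitosis list had a median change of 0.59 in TLR7 TLR9 KO against 2.05, 1.84 and 3.19, DNA replication 0.67 against 1.79, 1.65 and 1.95, and interferon-stimulated genes -0.29 against 0.54, 0.70 and 1.16. Mki67 read -1.80 and then 0.59 in these cells, and Rrm2 -1.14 and then 1.51, a change 2.49 ± 0.37 smaller than the mean of the others (unadjusted p = 0.000499, limma adjusted p = 0.136).

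Several groups that fell in the other genotypes also fell without the receptors. The amino acid response had a median change of -1.64 in TLR7 TLR9 KO against -0.91, -0.96 and -1.21, and MYC and ribosome genes -1.24 against -0.60, -0.62 and -0.62, while NF-κB fell less (-0.26 against -0.93, -0.97 and -0.57). Myc went from 4.28 to 2.38, Trib3 from 4.34 to 0.86, and Cd69 from 1.60 to -0.10. Pdcd1 rose as in the others, from 1.18 to 4.68. Ccl4 fell from 6.11 to 2.54, and Il6 stayed near the pool at both times (0.19 and 0.18). Interferon-stimulated genes were above the pool already at 6 h, with a median level of 0.60 against -0.90, -0.97 and -1.03, so that Usp18 read 1.16 and then 1.1. Pcbd1, 8.24-fold higher at 24 h in the other genotypes, read -0.03 and -0.11. Among the larger differences in the other direction, Crisp3 went from -1.29 to 3.25. These examples were chosen by size after their values were seen.

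**Figure D4:**
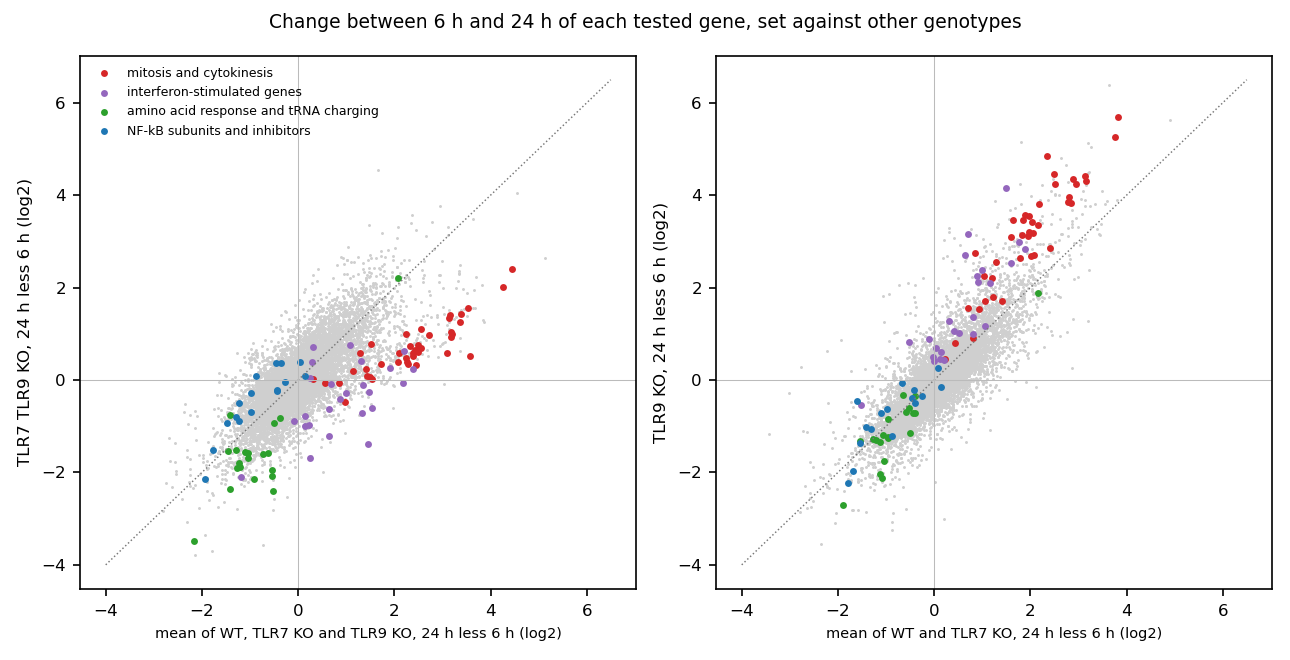
Change from 6 to 24 h (log2) of each of the tested genes in TLR7 TLR9 KO against the mean of the other 3 genotypes (left) and in TLR9 KO against the mean of WT and TLR7 KO (right), with 4 lists coloured and a dotted line of equal change. The mitotic genes lie below the line on the left and above it on the right.

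TLR9 KO was last set against WT and TLR7 KO within the 6 arrays. Its change differed for 1465 genes in limma, more positive for 673 (4.90%) and more negative for 792 (5.77%). This fit has 1 residual degree of freedom and 32.5 prior degrees of freedom. Its error is therefore mostly how closely WT and TLR7 KO agreed over all genes, not for the single gene, and both lay on the other slide. With the scanner's processed signals the test called 0 genes (1488 at an unadjusted p under 0.05). With 8 arrays, where TLR7 TLR9 KO was pooled with WT and TLR7 KO as the reference, it also called 0 (1443). With median centring it called 254 more positive and 1510 more negative, after the median of all genes moved to -0.39. For 707 of the 1465 genes the larger gap between the genotypes was at 6 h, and for 525 the change ran in opposite directions.

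The gaps by list are given as a description, with 1 pair of arrays for TLR9 KO. Over the mitosis list TLR9 KO lay at a median of 0.00 from the mean of WT and TLR7 KO at 6 h and 1.16 above it at 24 h. Histones had gaps of 0.02 and 0.86, interferon-stimulated genes -0.15 and 0.69, and DNA replication -0.01 and 0.20. Mki67 thus reached 4.0 in TLR9 KO against 2.11 and 2.06, a difference of change of 1.87, and Pdgfa 5.92 against 3.16 and 3.25. Cytokines were the reverse case, with a gap of -1.11 at 6 h and 0.11 at 24 h. Lag3, an inhibitory receptor, read 2.15 and 2.18 in WT and TLR7 KO at 6 h, -0.49 in TLR9 KO and -0.47 in TLR7 TLR9 KO, and at 24 h 2.49, 2.44, 2.80 and 0.41. Both genotypes without TLR9 shared this low level at 6 h, and they shared a slide.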

How the data were processed

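Splenic B cell RNA of 4 genotypes at 4 times was hybridised to 16 2-colour Agilent arrays, sample in Cy5 and the pool of unstimulated cells in Cy3, with no dye swap. The deposited files hold each spot's intensity in both colours, from Feature Extraction 10.1.1.1 per the file headers, and a series table of log10 ratios, which matched the scanner's processed signals of the same spots within 0.0006 and was used as an alternative.

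From the mean and background intensities, normexp (offset 50) and loess within each array gave log2 Cy5 over Cy3 (limma 3.58.1, R 4.3.3). Control and flagged spots were left out, spots of a probe were averaged, and the brightest probe stood for its gene. Probes entered a test if 3 or more of its arrays showed them well above background in Cy5 or Cy3. Of 55681 probes 24300 had no gene symbol through RefSeq (GRCm38.p6). They entered the fit and the adjustment but no count of genes. The arrays' own annotation is on mm9 per the file headers, and no coordinate of it is used.

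24 h was tested against 6 h with genotype as a block (limma, Benjamini-Hochberg over all probes and genes tested). Genotype pairs the samples by label. Differences of change for TLR7 TLR9 KO and TLR9 KO, and 42 h against 0 h, complete 4 comparisons. The members and lists were chosen with earlier results of these data known. Genes were named by rule: the 15 largest called changes each way, the 5 largest bounds each way, up to 4 of the largest called changes in each list, 15 landmark genes, and the 8 largest differences of change each way (for TLR7 TLR9 KO by size, none having passed). Other list members given as examples were chosen after their values were seen. Some genes that the rule names are not reported here. The fits were checked on simulated data. Alternatives were background correction, normalization, filter, probe rule, block, the fitted arrays and each genotype left out. Array number limits the precision.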

Additional observations from a re-analysis of the deposited data

Results flagged for a closer look

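The change from 6 to 24 h differed in limma between TLR9 KO and the mean of WT and TLR7 KO for 673 genes in the more positive and 792 in the more negative direction. That fit has 1 residual degree of freedom, and with processed signals it called 0 genes (1488 at an unadjusted p under 0.05). The 16 with the largest such differences are given here by the time at which the genotypes were apart. Genotypes without TLR9 shared a slide, so these gaps cannot be told apart from the slide.

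For most of them the gap lay at 6 h, and TLR7 TLR9 KO stood with TLR9 KO. Hsd11b1, which activates glucocorticoids, had the largest positive difference (3.35): it read -0.11 and 0.05 in WT and TLR7 KO at 6 h against -3.04 and -3.44 in the genotypes without TLR9, and at 24 h 1.76, 1.79 and 2.12 in WT, TLR7 KO and TLR9 KO. Jun, an immediate early factor, differed by 3.04, from -2.63, -2.36 and -5.13 at 6 h to -5.36, -5.14 and -4.85. Lag3 differed by 2.98 and the cytokine gene Lta by 2.87. The near copies Phf11d and Phf11b, which a probe may not separate, differed by 2.90 and 2.82. In the negative direction Rgs2, a brake on G protein signals, differed by -3.22, with 1.0 in TLR9 KO and 0.86 in TLR7 TLR9 KO at 6 h against -1.66 and -2.0. S1pr3, a receptor of marginal zone B cells, differed by -2.38, and was at 1.38 and 1.23 against -0.88 and -1.0 at 6 h. The chemokine receptor gene Ccr6 differed by -2.25, the factor Crem by -2.23 and Cr2, the complement receptor CD21, by -2.20. Nr4a1 differed by -2.19 and was apart at both times, with TLR9 KO above WT and TLR7 KO at 6 h and below them at 24 h. Cr2 was at -2.17 and -2.69 without TLR9 at 6 h and at -3.93 and -3.92 with it.

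For 2 genes the gap lay at 24 h. Osbpl3, a lipid-binding protein, differed by -2.61: it rose to 2.67 and 2.90 in WT and TLR7 KO and read 0.07 in TLR9 KO. Cebpd, a transcription factor, differed by -2.28, with 0.77, 1.29 and -1.41 at 24 h.

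For Nap1l1 (2.87) and Chtf8 (2.80) the difference rested on the TLR7 KO array at 6 h, which read 5.16 and 3.90, while the other genotypes lay between -0.31 and -0.13 for Nap1l1 and between -0.06 and 0.18 for Chtf8.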

How the results depend on the processing

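The counts at 24 h against 6 h were 2543 higher and 2054 lower with median centring, 2124 and 2160 with processed signals and 2123 and 2159 with the series table. Requiring a 2-fold change left 1013 and 470. With no replicate block (genotype) 2899 were higher and 3292 lower, and with 12 arrays 2602 and 3060. Leaving out a genotype gave 1812 to 3759 higher and 1915 to 3906 lower. Of the 6346 calls 4389 were also made with median centring (8 with the sign turned), 4048 with processed signals and 5884 with no block. No difference of change passed for TLR7 TLR9 KO in the main test, 25 did with median centring, 1 with no filter, and 0 to 2125 on leaving out a genotype. For TLR9 KO 254 more positive and 1510 more negative passed with median centring, and 0 and 0 with processed signals or 8 arrays. Over 198 genes taken by the rule or as examples for 24 h against 6 h, 2372 of 2554 comparisons kept direction and side of the threshold, 168 lost and 12 gained a call, and 2 turned sign: Xbp1 to 0.13 with median centring, and Tlr7 to 0.20 without WT (-0.38 without TLR9 KO). The TLR9 KO difference of change of Nap1l1 turned to -0.22 with Cy5 alone. Of 112 list medians 83 moved by less than the spread between genotypes, 24 by more, and 5 turned sign. On leaving out a genotype cytokines ran from -0.67 (without TLR9 KO) to 0.11 (without WT; 0.08 without TLR7 KO), nucleotide synthesis from -0.035 (without TLR9 KO) to 0.10 and MHC class II from -0.091 (without TLR9 KO) to 0.18. The proteasome was at 0.15 with median centring. The cause was not tested. Dim probes limit the range: low signals compress the ratio.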

Other observations

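The later course of the programmes that came on by 24 h differed between single arrays. At 42 h the median level of the mitosis list was 3.15 in WT and 3.42 in TLR7 KO, up from 1.91 and 1.74 at 24 h, but 0.81 in TLR9 KO, down from 3.05. TLR7 TLR9 KO stood at 2.31, up from 0.52. DNA replication read 1.87, 2.06, 1.05 and 1.68 at 42 h in the order WT, TLR7 KO, TLR9 KO and TLR7 TLR9 KO. Glycolysis stood at 2.16 and 2.21 in WT and TLR7 KO at 42 h, after 0.66 and 0.72 at 24 h, and at 0.44 and 0.36 in TLR9 KO and TLR7 TLR9 KO. Each of these values is from 1 array, so none has a test. The genotypes that stayed lower in glycolysis shared a slide.

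In TLR7 TLR9 KO several receptors and lymphoid genes took another course between 6 and 24 h. Rcan1, a calcineurin inhibitor and target of NFAT, went from 1.06 to 3.02, where the other genotypes read 0.89, 0.96 and 0.74 and then 0.97, 1.11 and 0.96. Tgfb3, a TGF-β ligand, went from -1.94 to 0.46 and Pcp4, a calmodulin regulator, from -2.26 to 1.11, against 24 h levels of at most -1.23 and -0.30 in the others. The paired receptor genes Pira2 and Lilra6 reached -1.37 and -1.96 at 24 h, against at most -2.77 and -3.44. Ly6d, a lymphoid surface protein, read -2.61 and then -3.22, while WT and TLR7 KO came up to -0.43 and 0.05 and TLR9 KO to -2.54. Ifi44, an interferon-stimulated gene, began at 2.52 and fell to 1.12, where WT, TLR7 KO and TLR9 KO went from -0.68, -0.49 and -0.94 to 0.20, 0.61 and 1.43. These genes were named by size, and none of the differences of change passed the threshold over all genes.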
